A study of Arabidopsis thaliana with 14 samples.

Results

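Poly(A) sites inside a gene but on the strand opposite to its strongest poly(A) site were described in Arabidopsis thaliana seedlings. The seedlings were of the cpsf70 mutant and of the wild type Col0. Clusters of poly(A) ends from 4 libraries were joined on one strand at gaps of at most 24 nt, which gave 30191 nuclear sites. A site was taken as a member when at least 2 tables listed it, when it lay inside the span of exactly 1 gene, when it sat on the strand opposite to the gene's strongest site by the mean of the 2 Col0 tables, and when at least 500 nt separated it from that site. The strongest site was sought only among sites inside exactly 1 gene span. A higher site in an overlap of genes, or past the gene's end, was passed over. These rules left 646 opposite-strand sites in 545 genes, 2.14% of all sites. Of the 545 genes, 473 held 1 such site and 72 held more, with at most 6 in one gene, and 540 were annotated as protein coding. Sites in one gene share their host and are not independent of each other.

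Most Arabidopsis genes end at a cluster of nearby poly(A) sites, where the nascent RNA is cleaved and a poly(A) tail is added. Transcription of the other strand gives antisense RNAs with poly(A) sites of their own, and at genes such as FLC the choice among antisense poly(A) sites is part of flowering control. CPSF70 is the long protein made from the CPSF30 gene, part of the complex that cleaves RNA before the tail is added, and it has a YTH domain, which binds the methylated base m6A.

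The poly(A) libraries came from 12-day seedlings of cpsf70 (2 libraries) and of Col0, labelled wild type (2 libraries). They were made by A-seq2, which starts reverse transcription at the poly(A) tail and keeps the strand. Peaks of 2 FLAG CLIP libraries from 12-day seedlings of a line that overexpresses CPSF70, and of 2 m6A libraries from 14-day Col0 seedlings, were set beside the sites, and an RNA-seq table covered 2 cpsf70 and 2 Col0 libraries of 12-day seedlings. The labels name neither the allele of cpsf70, nor the promoter of the overexpressed protein, nor separate plantings for the replicates, and each p-value here reflects only how far these libraries lie apart, which may be technical.

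CPSF30 stood at 0.542 and 0.593 FPKM in cpsf70, against 5.58 and 4.87 FPKM in Col0, in the authors' deposited table. The spacing of the low values put 1 tag at 0.257 and 0.164 TPM in cpsf70 replicates 1 and 2, against 0.319 and 0.308 TPM in Col0 replicates 1 and 2, so that 3 TPM, the lowest value of 3 of the tables, stood for 9.41 to 18.3 tags. A step smaller by a factor of 2 took in more values in each table, so the depth may be higher by that factor. Both cpsf70 tables listed the same 29896 clusters with 0 equal values, and their being listed in both counts as a single event. Of a list of shoot genes, 8 of 9 had sites, which summed to 18460 to 20453 TPM in cpsf70 and 13243 to 16951 TPM in Col0. Root genes had sites for 5 of 8, and summed to 34.1 to 43.3 TPM in cpsf70 and 38.0 to 46.5 TPM in Col0. Sites were listed for 2 of 5 flower genes and 2 of 7 seed genes, at sums of 0 to 15.9 TPM per library.

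The working name of these sites, antisense, was checked first, because the gene table gave no strand and the strongest site stood in for the sense strand. In 196 of the 545 genes (36.0%), the strongest site of the 2 cpsf70 libraries lay on the other strand than the strongest site of Col0. It lay on the same strand in 340 genes, and 9 genes had no site in cpsf70. Over all 10910 genes with a site, the strand differed in 288 (2.64%). Both strands had a site in 873 genes, and those 288 were all among them. The strongest site lay on the same strand in each of the 4 tables in 244 member genes, with 273 of the 646 sites, called strand-stable below. In 89 of the 545 genes the strongest site was listed in a single table, and in 73 it differed over 10-fold between the Col0 libraries. These values go against the name antisense for the whole set. The sites are therefore called opposite-strand sites, and results are also given for the strand-stable genes. That split uses the cpsf70 levels and is a description.

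AT3G14600 shows how a single library can set the strand. Its strongest site stood at 3.83 and 12.1 TPM in cpsf70, against 4457 and 12.6 TPM in Col0. Its opposite-strand site (chromosome 3, 4912004 to 4912229, plus strand) stood at 81.6 and 67.3 TPM in cpsf70, against 95.3 and 75.7 TPM in Col0. The opposite-strand site was the higher one in every library but Col0 replicate 1. At AT4G02530 the strongest site was listed in Col0 replicate 2 alone, at 214 TPM, while its opposite-strand site (chromosome 4, 1112139 to 1112251, minus strand) stood at 41.7 and 32.9 TPM in cpsf70 and 43.7 and 51.9 TPM in Col0. The evenness of the opposite-strand sites at both genes contrasted with the strongest sites, which rested on one library each.

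Opposite-strand sites gathered near the start of the gene, as read in the direction of the strongest site. The gene strand was not known, so this start is the gene's other end wherever the strongest site is not on the gene's own strand. In the first 10% of the gene span lay 229 of 646 (35.4%), against 233 of 3589 (6.49%) of the sites on the same strand as the strongest site and at least 500 nt from it. The median position was 20.3% of the span for opposite-strand sites and 45.5% for the same-strand sites. The strongest sites of the same 545 genes had their median at 84.8%, and 241 of them lay in the last 10%. Among the strand-stable genes, 88 of 273 opposite-strand sites (32.2%) lay in the first 10%, and the median was 20.9%. In the other genes 141 of 373 (37.8%) did, with a median of 19.8%. The rule on distance keeps members away from the strongest site and so bears on their position.

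**Figure D1:**
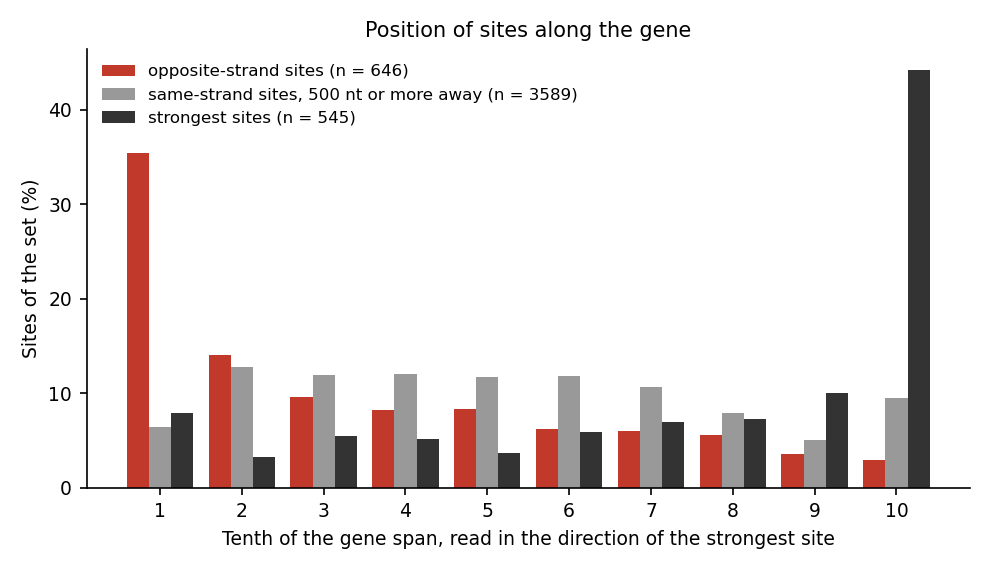
Share of each set of sites (vertical axis, %) in each 10% of the gene span, read in the direction of the gene's strongest site (horizontal axis, 1 to 10); bars stand for opposite-strand sites, same-strand sites at least 500 nt from the strongest site, and the strongest sites. Opposite-strand sites peak in the first bin at 35.4%, and the strongest sites in the last bin at 44.2%. The gene strand was not known, and the strongest site stood in for it.

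The strongest site lay beyond 50% of the span in 406 genes and before it in 139. Of the 490 opposite-strand sites in the first kind of gene, 172 (35.1%) lay in the first 10%. Of the 156 in the second kind, 57 (36.5%) did. The shares in both kinds of gene were close to each other.

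The distance to the strongest site ran from 500 to 25448 nt, with a median of 1613 nt and quartiles of 968 and 2541 nt. The host genes were long, with a median span of 3069 nt, against 2441 nt over all genes with a site, and the sites were narrow, with a median width of 21 nt, against 40 nt over all sites. A further 417 opposite-strand sites lay closer than 500 nt, and 109 beyond that distance lay inside 2 or more genes and were left out.

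Just inside the limit lay a site in IMS2, a gene of the methylthioalkylmalate synthase family, at 500 nt, and sites in ARAC5, a small GTPase, at 506 nt, RBL14 at 508 nt, CAF1 at 509 nt and AT3G49790 at 517 nt. The site in CAF1, a splicing factor of chloroplast introns, stood at 9.66 and 9.74 TPM in cpsf70 and 10.9 and 13.8 TPM in Col0, and the other 4 stayed at or below 7.95 TPM. Just outside it lay sites in bZIP19, a regulator of the zinc deficiency response, at 498 nt, SFR2 at 497 nt, OFP13 at 496 nt, AT2G07698 at 494 nt and CAM6, a calmodulin, at 486 nt. The last of these stood at 28.1 and 19.9 TPM in cpsf70 and 16.3 and 16.0 TPM in Col0, and that in bZIP19 at 10.3 and 8.86 TPM in cpsf70 and 7.97 and 5.23 TPM in Col0.

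Peaks were compared with the sites without regard to strand, which the peak tables do not give, so a peak cannot be assigned to the RNA of one strand. An m6A peak of Col0 overlapped 27.9% of the opposite-strand sites (exact 95% interval 24.4 to 31.5%), 46.4% of the strongest sites of the same genes (42.2 to 50.7%) and 23.7% of the distant same-strand sites (22.3 to 25.1%). Over all sites inside 1 gene the share was 52.4%. The intervals cover counting error over sites only. In strand-stable genes the share was 20.1% (15.6 to 25.4%) at opposite-strand sites and 63.9% (57.6 to 70.0%) at strongest sites. In the other genes it was 33.5% (28.7 to 38.6%) at opposite-strand sites and 32.2% (27.0 to 37.8%) at strongest sites. The difference between opposite-strand and strongest sites was thus seen in the strand-stable genes, and their intervals overlapped in the others. Distant same-strand sites also had a lower share than strongest sites, so this contrast does not set strand apart from being the strongest site.

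CPSF70 CLIP peaks of the overexpressing line were also less frequent at opposite-strand sites than at strongest sites. They overlapped 9.75% of the opposite-strand sites (7.58 to 12.3%), 20.6% of the strongest sites (17.2 to 24.2%) and 11.6% of the distant same-strand sites (10.6 to 12.7%). At opposite-strand sites the share was 6.19% without CLIP replicate 2, 6.66% without replicate 1, and 3.87% for peaks shared by both replicates, against 15.4, 16.9 and 12.7% at strongest sites. In strand-stable genes the shares were 8.79% (5.71 to 12.8%) at opposite-strand sites and 32.4% (26.5 to 38.6%) at strongest sites, and in the other genes 10.5% (7.54 to 14.0%) and 10.96% (7.67 to 15.1%). The CLIP samples of Col0 were not analysed here, and a background for this share is therefore not given.

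Position within the gene, again read in the direction of the strongest site, went with both kinds of peak. Opposite-strand sites in the first 10% of the span had an m6A peak in 55.9% of cases (49.2 to 62.4%), and those elsewhere in the gene in 12.5% (9.46 to 16.0%). For CLIP peaks the shares were 20.1% (15.1 to 25.9%) and 4.08% (2.39 to 6.45%). Within strand-stable genes, sites in the first 10% had an m6A peak in 45.5% of cases (34.8 to 56.4%, 40 of 88). A CLIP peak overlapped 23.9% of them (15.4 to 34.1%, 21 of 88). In the other genes the m6A share in the first 10% was 62.4% (53.9 to 70.4%, 88 of 141). The CLIP share there was 17.7% (11.8 to 25.1%, 25 of 141). Sites in genes whose strand was not stable thus made up much of the pooled m6A share.

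**Figure D2:**
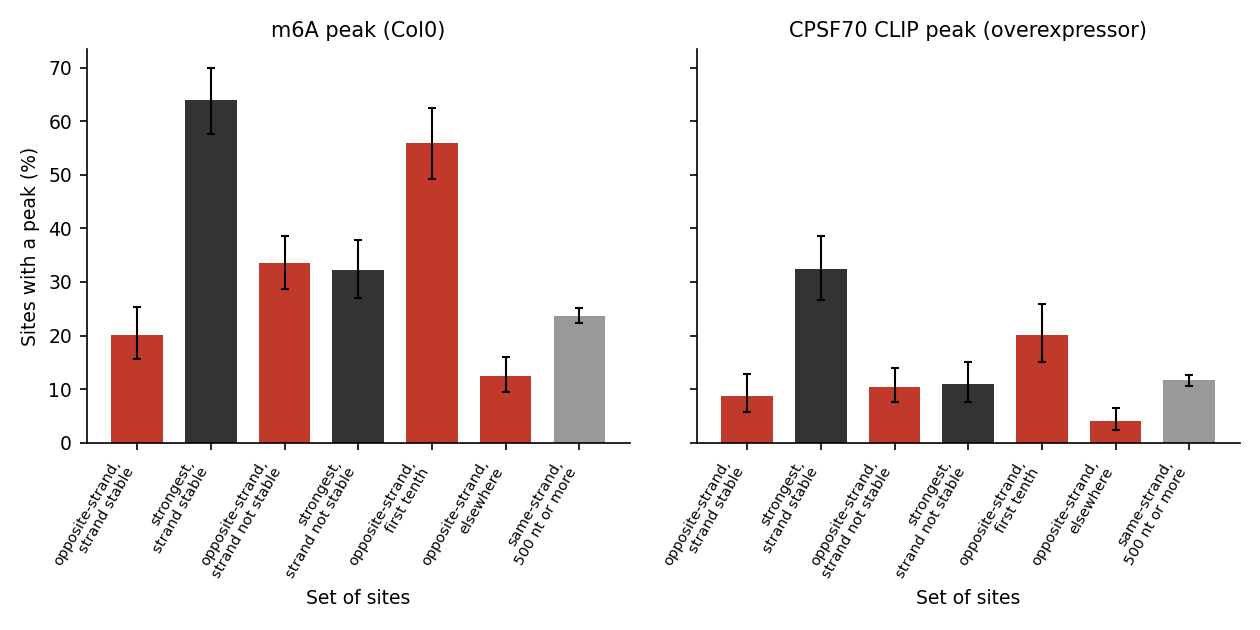
Share of sites with an m6A peak in Col0 (left panel) or a CPSF70 CLIP peak in the overexpressing line (right panel), in % on the vertical axis, for the sets of sites named on the horizontal axis; error bars are exact 95% intervals over sites. In strand-stable genes the m6A share was 20.1% at opposite-strand sites and 63.9% at strongest sites, while in the other genes the shares were 33.5% and 32.2%.

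Of the 646 sites, 210 were listed in all 4 tables, 144 in 3 and 292 in 2. The 10 highest of the 210 in Col0 are described next, as the sites measured with the least counting error. Of these, 7 lay in the first 20% of their gene, and 5 lay in strand-stable genes.

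At AT5G20700 the site (chromosome 5, 7005837 to 7006116, minus strand) stood at 175 and 165 TPM in cpsf70, against 127 and 95.4 TPM in Col0, and the strongest site on the other strand at 77.0 and 28.2 TPM in cpsf70, against 177 and 54.7 TPM in Col0. The opposite-strand site was the higher in 3 of 4 libraries. At AT4G32590 the site (chromosome 4, 15722845 to 15722892, plus strand) stood at 89.1 and 75.7 TPM in cpsf70, against 81.3 and 56.3 TPM in Col0, beside a strongest site at 67.6 and 76.5 TPM in cpsf70, against 55.5 and 248 TPM in Col0. In RTNLB3, which encodes a reticulon-like protein of the endoplasmic reticulum, it stood at 55.4 and 32.7 TPM in cpsf70, against 38.4 and 38.5 TPM in Col0. Neither of these genes was strand-stable.

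Among the strand-stable genes, the site in CAT3, a catalase that breaks down hydrogen peroxide, was the highest and is described with the changes. AT5G10960 held 2 of the 8 highest strand-stable sites, a set chosen after its values were seen. Its first site (chromosome 5, 3465636 to 3465697, plus strand) stood at 63.2 and 51.4 TPM in cpsf70, against 59.3 and 42.9 TPM in Col0, and its second (3465311 to 3465578) at 51.2 and 51.05 TPM in cpsf70, against 36.3 and 17.5 TPM in Col0. The strongest site of AT5G10960 stood at 167 and 636 TPM in cpsf70, against 185 and 298 TPM in Col0. The genotypes overlapped at the first site of AT5G10960, while at the second both cpsf70 values lay above both Col0 values, though the change of 0.99 missed the threshold (limma, adjusted p = 0.540).

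The site in AT3G62560 (chromosome 3, 23138968 to 23139072, plus strand) stood at 52.5 and 31.02 TPM in cpsf70, against 40.2 and 27.4 TPM in Col0. It lay at 6.72% of the span and had both an m6A and a CLIP peak. The site in sks5, a gene of the SKU5-like family, stood at 33.7 and 25.8 TPM in cpsf70, against 33.3 and 36.0 TPM in Col0, at 3.48% of the span with neither kind of peak. In AT1G27530 the site stood at 40.5 and 15.5 TPM in cpsf70, against 47.9 and 52.1 TPM in Col0, a change of −0.96 on the log2 scale that did not pass the test (limma, adjusted p = 0.567). Values of cpsf70 lay below those of Col0 at this site, with more than a 2-fold gap between the cpsf70 libraries.

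The other strand-stable sites among the 8 highest were those in AT5G40670 and GATB, which encodes a subunit of the amidotransferase that makes glutaminyl-tRNA in organelles. The first stood at 17.0 and 16.4 TPM in cpsf70, against 31.6 and 25.5 TPM in Col0, and the second at 27.6 and 18.3 TPM in cpsf70, against 27.1 and 24.2 TPM in Col0. Both carried an m6A peak and a CLIP peak and lay within the first 10% of the span.

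**Figure D3:**
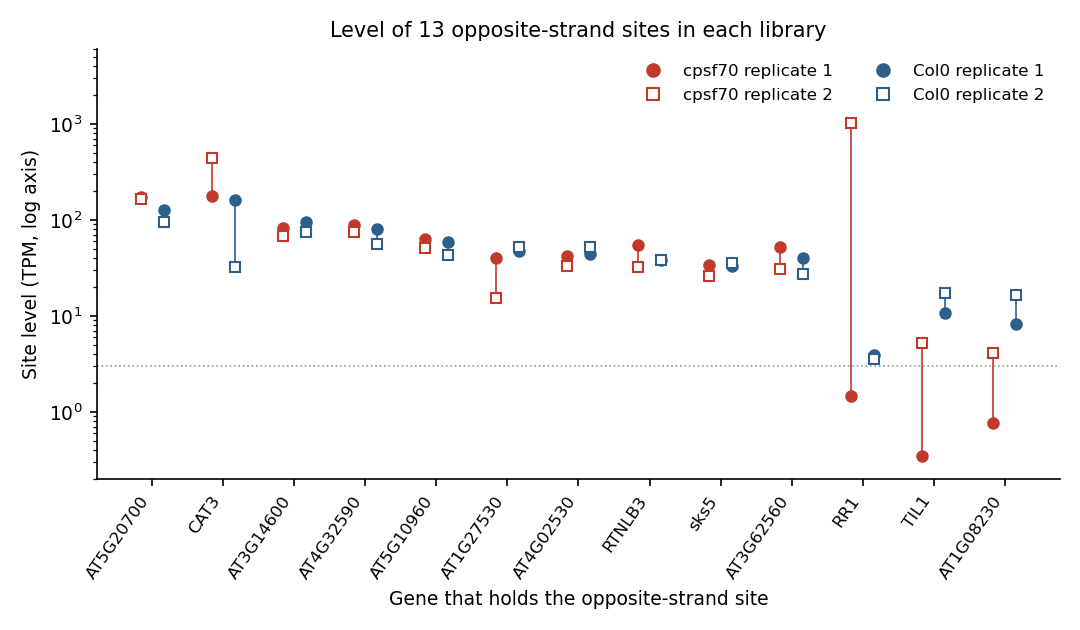
Level in TPM (vertical axis, log scale) of the 10 highest opposite-strand sites in Col0 and of the called sites in RR1, TIL1 and AT1G08230, by gene (horizontal axis); circles are replicate 1 and squares replicate 2, with cpsf70 left of Col0, and the dotted line is 3 TPM. Most genes show both genotypes at close levels, while RR1 stood at 1018 TPM in cpsf70 replicate 2 and at no more than 3.93 TPM in the other libraries.

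The level of the 210 opposite-strand sites in all 4 tables was compared between cpsf70 and Col0 in a limma fit over all 13668 such sites, on log2(TPM + 1), with Benjamini-Hochberg adjustment. Changes on this scale understate those of low sites. Levels of cpsf70 replicate 1 can also lie under 3 TPM, the floor of the other tables. Of the 210, 2 were higher and 2 lower in cpsf70 at an adjusted p under 0.05, which is 1.90% in all, against 2.2% of all sites tested (0.615% higher and 1.59% lower). The median change was −0.0034 (quartiles −0.32 and 0.32), against 0.04 over all sites (quartiles −0.27 and 0.34), and 91.9% of the 210 changed by less than 1 log2 unit, against 92.0% of all. Both cpsf70 libraries lay above both Col0 libraries at 43 sites (20.5%), against 22.5% of all sites, and below them at 39 (18.6%), against 17.8%. The 210 sites listed in all tables thus showed no shift larger than that of all such sites. With all 646 members and absent values set to 0, the median change was 0.76, against 0.25 over all sites. In this alternative cpsf70 replicate 1 holds values below the floor of the Col0 tables. Of the 646, 211 met the rule of at least 2 tables through the cpsf70 tables alone, and 81 through the Col0 tables alone. The filter thus favours a positive median, and 0.76 is not read as a shift of the members. In seedlings measured in bulk, fewer cells of a type and less RNA per cell cannot be told apart.

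The distant sites on the same strand as the strongest one, tested in the same fit, had a median change of 0.35 (n = 1014), with 18 higher and 3 lower (2.07%). These sites, too, were not the strongest of their gene in Col0. Within the strand-stable genes the median change of the opposite-strand sites was −0.14 (n = 90, 1 called) and in the other genes 0.11 (n = 120, 3 called). That split uses the cpsf70 levels. In the first 10% of the gene it was −0.04 (n = 117, 0 called) and elsewhere 0.08 (n = 93, 4 called). Sites with an m6A peak had a median of 0.02 (n = 106) and those without of −0.11 (n = 104), with 0 and 4 called. For CLIP peaks the medians were 0.01 (n = 42, 0 called) and −0.0034 (n = 168, 4 called). Each split divides the same 4 called sites, too few to compare, and 2.2% of all sites tested were called.

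**Figure D4:**
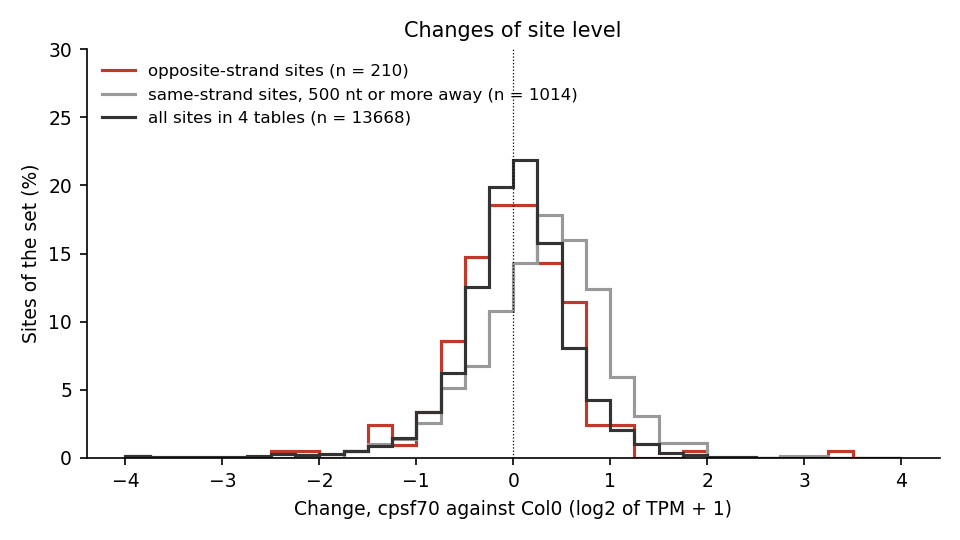
Distribution of the change in site level, cpsf70 against Col0 (horizontal axis, log2 of TPM + 1, in bins of 0.25 with values beyond 4 in the end bins), as a share of each set (vertical axis, %). The 210 opposite-strand sites centre near 0, like all 13668 sites, and the 1014 distant same-strand sites centre higher, at a median of 0.35.

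The fit gave every site the same standard error, 0.49, so a site's own spread did not enter its test. In RR1 (AT3G16857, chromosome 3, 5756126 to 5756147, minus strand), a type-B response regulator of cytokinin signalling, the site stood at 1.48 and 1018 TPM in cpsf70, against 3.93 and 3.59 TPM in Col0. Its change was 3.40 (SE 0.49, adjusted p = 2.0e-09). The call rests on cpsf70 replicate 2, and without it the change was −0.94, in the other direction. The strongest site of RR1 stood at 17.3 and 14.4 TPM in cpsf70, against 25.2 and 15.7 TPM in Col0.

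In CAT3 (chromosome 1, 7144105 to 7144122, minus strand) the site stood at 178 and 442 TPM in cpsf70, against 161 and 32.3 TPM in Col0. Both cpsf70 values were above both Col0 values, by a narrow margin between cpsf70 replicate 1 and Col0 replicate 1. The change was 1.94 (SE 0.49, adjusted p = 0.0064). It was 1.28 without cpsf70 replicate 2 and 0.79 without Col0 replicate 2, and passed in neither case. The strongest site of CAT3 stood at 2083 and 1474 TPM in cpsf70, against 1460 and 1324 TPM in Col0, on the same strand in all 4 libraries, with an m6A peak and a CLIP peak, while the opposite-strand site at 32.0% of the span had neither.

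In TIL1 (chromosome 1, 2602651 to 2602668, plus strand), which encodes the catalytic subunit of DNA polymerase epsilon, the site stood at 0.343 and 5.26 TPM in cpsf70, against 10.6 and 17.1 TPM in Col0. It fell by 2.32 on the log2 scale (SE 0.49, adjusted p = 2.9e-04). In AT1G08230 (chromosome 1, 2583663 to 2583667, plus strand), a transporter of gamma-aminobutyric acid, it stood at 0.772 and 4.11 TPM in cpsf70, against 8.23 and 16.6 TPM in Col0, and fell by 2.08 (SE 0.49, adjusted p = 0.0022). At both sites the genotypes did not overlap, with cpsf70 below Col0, which held at 17.8% of all sites tested. The 2 libraries of cpsf70 were further apart than those of Col0 as a ratio, though not as a difference in TPM. In cpsf70 replicate 1 both sites stood under 3 TPM, a level that the Col0 tables do not list. Without cpsf70 replicate 1 the changes were −1.21 and −1.32, and without Col0 replicate 2 they were −2.003 and −1.62, none past the threshold. TIL1 was also in the authors' deposited table of RNA-seq, at 2.198 and 2.148 FPKM in cpsf70, against 4.87 and 4.66 FPKM in Col0, with a listed fold of 0.549. That table gives no strand. Of the 168 genes in it, 1 other, AT5G64120, held an opposite-strand site, with a listed fold of 1.83 in the authors' deposited table.

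All 4 calls were lost with median-ratio scaling, and likewise with absent values set to 0 and all sites in at least 2 tables tested. A robust limma fit lost RR1 (adjusted p = 0.893) and CAT3 (adjusted p = 0.110), and pseudocount 5 lost RR1 (adjusted p = 0.140). Of the genes of the 4 calls, CAT3 alone was strand-stable.

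The next sites by p did not pass. On the higher side they lay in MO1, a monooxygenase, at 12.2 and 14.5 TPM in cpsf70 and 6.38 and 4.62 TPM in Col0 (change 1.15, limma adjusted p = 0.349), AT5G66090 (change 1.12, adjusted p = 0.396) and BT1, a BTB and TAZ domain protein (change 1.11, adjusted p = 0.399). In all 3 the genotypes did not overlap, with cpsf70 above Col0. That held at 22.5% of all sites tested, and picking sites by p favours it. On the lower side they lay in AT5G25270, at 2.83 and 3.45 TPM in cpsf70 and 10.2 and 12.0 TPM in Col0 (change −1.55, limma adjusted p = 0.0700), AT2G46560 (change −1.42, adjusted p = 0.133) and TIC, a clock-associated protein (change −1.42, adjusted p = 0.136). Each of these lower sites stood under 3 TPM in cpsf70 replicate 1, below the floor of the Col0 tables. At an unadjusted p under 0.05 there were 8 higher and 10 lower sites, 8.57% of the 210, against 8.85% of all sites.

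The level of each opposite-strand site was then set against the strongest site of its gene. In 160 members, in 145 genes, both were listed in all 4 tables. The opposite-strand site stood at a median of 35.8 and 39.8% of the strongest site in the cpsf70 libraries, against 38.0 and 35.4% in the Col0 libraries. These 4 values overlapped between genotypes. It was above the strongest site in 37 and 27 of 160 members in cpsf70, against 19 and 13 in Col0. It was above in both cpsf70 libraries in 16 members, and in both Col0 libraries in none, which the choice of the strongest site in Col0 fixes. That choice also holds down the count in each Col0 library, so these counts do not compare the genotypes.

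The balance, log2 of opposite-strand TPM + 1 over strongest-site TPM + 1, was tested in a limma fit over 324 pairs at any distance, and 0 of the 160 members passed, against a background of 0 (0%); 13 members and 29 of all pairs had an unadjusted p under 0.05. The smallest adjusted p was 0.375. The median change of the balance was 0.32 over the members and 0.25 over all pairs, and it was above 0 in 61.3% of members and 61.1% of all pairs. The members' median was 0.16 without cpsf70 replicate 2, 0.19 without Col0 replicate 2 and 0.12 at a distance of at least 1000 nt, while it was 0.56 at a mean of at least 10 TPM and 1.03 with absent values set to 0. The strongest sites of these members changed by a median of −0.31 and the opposite-strand sites by −0.04, while strongest sites over all genes changed by −0.0087. Because the strongest site was picked on the Col0 values, a lower value in cpsf70 is favoured by the choice. In strand-stable genes the median change of the balance was −0.05 (n = 89), and in the others 0.98 (n = 71). Strand-stable genes were set apart by the cpsf70 levels as well, so a higher balance change in the others is favoured by that split.

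**Figure D5:**
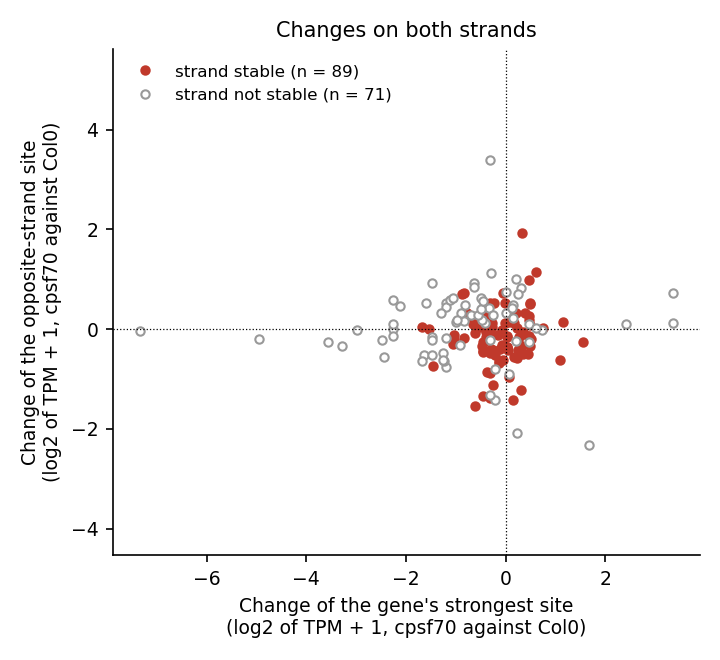
Change of the opposite-strand site (vertical axis) against the change of the strongest site of its gene (horizontal axis), both in log2 of TPM + 1, cpsf70 against Col0, for 160 members; filled points lie in strand-stable genes (n = 89) and open points in the others (n = 71). Open points reach far to the left, down to −7.34 at SK32, and include 3.36 at TOC1 on the right. Filled points reach less far to the left. They include −1.47 at AT5G40670 and 1.55 at PLDALPHA1 on the horizontal axis, and 1.94 at CAT3 on the vertical axis. The split into filled and open points uses the cpsf70 levels, which favours this contrast.

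The widest balance change was that of SK32, a shaggy-like protein kinase. Its opposite-strand site (chromosome 4, 293744 to 293810, minus strand) stood at 33.2 and 23.3 TPM in cpsf70, against 29.96 and 27.4 TPM in Col0, and its strongest site at 0.652 and 3.12 TPM in cpsf70, against 280 and 638 TPM in Col0. The balance changed by 7.30 (SE 0.87, limma adjusted p = 0.375), carried by the strongest site, and did not pass. In CDC5, a component of the spliceosome, 2 opposite-strand sites stood at 7.98 and 7.39 TPM and at 28.1 and 21.3 TPM in cpsf70, against 5.53 and 5.23 TPM and 21.7 and 12.9 TPM in Col0. The strongest site of CDC5, at 6.03% of the span, stood at 18.0 and 13.5 TPM in cpsf70, against 39.8 and 34.9 TPM in Col0. Its balance changes were 1.65 and 1.73 (limma adjusted p = 0.384 for each). Neither SK32 nor CDC5 was strand-stable.

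The other pairs of smallest p had positive changes of 2.13 in sks17 and 1.71 in AT1G56230 (limma adjusted p = 0.384 for each), both in genes that were not strand-stable, and negative changes of −4.003 in TIL1, −2.30 in AT1G08230, −1.82 in PLDALPHA1, a phospholipase D, −1.71 in TGG1, a myrosinase of glucosinolate breakdown, and −0.82 in NRPA2, a subunit of RNA polymerase I. None of these passed, with adjusted p between 0.384 and 0.481. Changes of larger size but larger p were among others 4.76 in AT3G14600, 3.72 in RR1, and −3.23 and −2.64 in TOC1. In TIL1 the strongest site stood at 5.15 and 508 TPM in cpsf70, against 16.8 and 16.1 TPM in Col0, so its change rests on cpsf70 replicate 2. In TGG1 the opposite-strand site stood at 16.0 and 14.3 TPM in cpsf70, against 26.9 and 21.1 TPM in Col0, and the strongest site at 61.3 and 68.6 TPM in cpsf70, against 37.3 and 24.01 TPM in Col0. The genotypes did not overlap on either strand of TGG1. Over all sites tested, both cpsf70 values lay above both Col0 values at 22.5% and below them at 17.8%.

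Many sites were listed in one genotype alone. Both cpsf70 tables and neither Col0 table listed 211 members (32.7%), against 20% of all sites inside 1 gene and in at least 2 tables. Both Col0 tables alone listed 81 (12.5%), against 9.34%. The distant same-strand sites were at 42.4% and 6.49%. Listing differed in its floor: the Col0 tables start at 3 TPM in each library, while cpsf70 replicate 1 held values under 3 TPM at 240 of 565 listed members (42.5%), against 19.7% of all sites inside 1 gene, and 0 TPM at 71. With cpsf70 replicate 1 held to 3 TPM, 57 members were listed in cpsf70 alone, 8.82% of the unchanged total of 646. Over all sites inside 1 gene the share was 7.99% of the unchanged total of 19716. At that floor 154 of the 646 would be listed in 1 table and fail the rule of at least 2. Such sites remain in both totals, so both shares are too low and are not compared. With a mean of at least 10 TPM, 16 were listed in cpsf70 alone (2.48%, against 0.659% of all sites) and 6 in Col0 alone (0.929%, against 1.42%). A single library of at least 3 TPM carried 154 of the 646 members.

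The 5 highest sites listed in cpsf70 alone were all at 0 TPM in cpsf70 replicate 1. They stood at 883 TPM in cpsf70 replicate 2 in AT1G73920, at 403 TPM in AT3G28450, at 287 TPM in TTA1, at 252 TPM in IMB1, a bromodomain protein, and at 140 TPM in TOR, the kinase that couples growth to nutrients. The strongest sites of these genes stayed between 3.04 and 18.8 TPM in all libraries. Each of these members therefore rests on one library, and none lay in a strand-stable gene.

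Sites listed in Col0 alone were in both of its tables, which the rule of at least 2 tables fixes. In GAPC1, a cytosolic glycolytic dehydrogenase, the site (chromosome 3, 1082630 to 1082632, minus strand) stood at 33.3 and 36.6 TPM in Col0, beside a strongest site at 283 and 211 TPM in cpsf70, against 259 and 218 TPM in Col0. A second site in AT4G32590 stood at 23.0 and 17.2 TPM, one in BXL1, a beta-xylosidase of the cell wall, at 12.2 and 15.7 TPM, and 2 in AT4G00990 at 9.40 and 18.2 TPM and at 8.29 and 14.2 TPM, all in Col0. Not being listed in cpsf70 is no measured 0, since the tables of the genotypes list different clusters.

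Summed over all members, opposite-strand sites held 4002 and 8351 TPM in cpsf70, against 3561 and 3298 TPM in Col0. Of these, 6 stood above 50 TPM in cpsf70 replicate 2 and below 3 TPM in replicate 1, and together made up 2983 TPM. Without them the sums in cpsf70 were 4001 and 5368 TPM. Over the 210 sites in all tables the medians were 7.87 and 7.10 TPM in cpsf70, against 7.38 and 7.08 TPM in Col0.

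At the other end of the scale were members whose level in Col0 all but equalled that of the strongest site. In XTH30, an enzyme that remodels xyloglucan, the opposite-strand site was at 100% of the strongest one, each at 3.03 TPM in Col0 replicate 1 and not listed in replicate 2, so that the strand named as strongest rests on a tie. RbcX2, UBC6, PAP12 and AT5G33990 followed at 97.8 to 99.4%. In all 5 genes neither the member nor the strongest site exceeded 13.1 TPM in a library.

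Of the gene lists, the clock and flowering genes held members in TOC1, an evening gene of the circadian clock, the photosynthesis genes in LHCB6, a light-harvesting protein of photosystem II, and the defence genes in NPR1, a receptor of salicylic acid. The 2 sites in TOC1 stood at 30.9 and 22.0 TPM and at 13.4 and 9.36 TPM in cpsf70, against 23.4 and 24.3 TPM and 6.38 and 6.46 TPM in Col0. Their changes were 0.12 and 0.72 (limma adjusted p of 1.00 and 0.852). The strongest site of TOC1 stood at 285 and 278 TPM in cpsf70, against 157 and 3.84 TPM in Col0, so its strand in Col0 rests on replicate 1. The site in LHCB6 stood at 14.7 and 14.8 TPM in cpsf70, against 11.2 and 18.6 TPM in Col0, and that in NPR1 at 15.7 and 11.8 TPM in cpsf70, against 16.3 and 10.2 TPM in Col0. The genotypes overlapped at the sites in LHCB6 and NPR1. The strongest site of NPR1 was listed in the Col0 tables alone, at 42.6 and 73.9 TPM, so NPR1 was not strand-stable.

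These 4 sites came from 1 of 13 clock and flowering genes, 1 of 44 photosynthesis genes and 1 of 15 defence genes with any site, and 0 of the 4 passed. No member lay in the 22 genes of polyadenylation and m6A, the 20 of abscisic acid and stress or the 10 of nitrate use that had a site, while over all genes with a site 4.995% held a member. Of 8 genes for which antisense transcripts are known, 2 had a site inside exactly 1 gene, and neither held a member. HSFB2A, a heat shock factor, had an opposite-strand site (chromosome 5, 24917353 to 24917424, plus strand) that lay too near, at 4.94 and 4.27 TPM in cpsf70 and in neither Col0 table. The neighbours ALDH12A1 and SRO5, a proline catabolic enzyme and a stress regulator that overlap tail to tail, had sites on both strands in the span that they share, outside the rule on 1 gene.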

How the data were processed

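The authors deposited poly(A) clusters per library with levels in TPM, per the file headers, m6A and CLIP peaks per replicate with a fold enrichment and a −log10 p-value, and an RNA-seq table of 168 genes with FPKM, a fold and a p-value, deposited for all 4 RNA-seq libraries. Tools listed in the submitters' processing notes are MACS2 2.2.5, HISAT2 2.1.0 and cutadapt 1.18, and the build is TAIR10. Coordinates are those of the authors' files. Gene spans and names came from RefSeq TAIR10.1.

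The 14 samples fall into 7 groups of 2, by title. Clusters were joined at gaps of at most 24 nt and TPM summed. Levels, on log2(TPM + 1), were tested with limma 3.58.1 (R 4.3.3, eBayes) over sites listed in all 4 tables, and the members were read out of that fit. Recovered tags came out whole (within 0.01) for 71.1 to 79.1% of values, so no count test was run. The scripts were tested on simulated data. A 2 against 2 permutation cannot give a p below 0.333 and was not used.

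Members and gene lists were chosen with earlier results of these data known. Named sites are the 10 highest in Col0, those called or nearest to it for level and balance, the 5 highest listed in one genotype, the 5 nearest to equal levels, those in listed genes, and those around 500 nt. Alternatives covered pseudocount, filters, scaling, joining, distance, robust fit, replicate block and left-out libraries.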

Additional observations from a re-analysis of the deposited data

How the results depend on the processing

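Depth limits the low members: 3 TPM stands for 9.41 to 18.3 tags, and both cpsf70 tables share one cluster list. Of 432 settings of single named sites, 390 kept direction and side of the threshold, 21 lost the call, 8 gained one and 13 changed sign, all but RR1 in sites that were not called. Where counts or medians moved, the cause was not tested. Against 2 higher and 2 lower members, with 301 of all 13668 sites called, pseudocount 5 gave 1 higher. Absent values set to 0 over 646 members gave 83 higher and 82 lower, with 5538 of all 23711 sites called. Median changes were then 0.76 for level and 1.03 for balance, with 211 members listed in cpsf70 alone and 81 in Col0 alone. Median-ratio scaling gave 0 higher and 0 lower, with 34 of all 13668 sites called. A robust fit gave 0 higher and 6 lower, with 572 of all 13668 sites called. A mean of at least 10 TPM gave 0 lower and medians of 0.11 (level) and 0.56 (balance), with 16 members listed in cpsf70 alone and 6 in Col0 alone. Joining around midpoints gave 4 lower, and turned AT3G14600 (0.040), AT4G02530 (0.49), RTNLB3 (−0.50) and LHCB6 (−0.25). Median ratios turned LHCB6 (−0.032). A distance of 1000 nt gave 1 lower and a balance median of 0.12. An alternative added after the data were seen took the strongest site among all sites of the span. It gave 711 opposite-strand sites, with 4 higher and 1 lower. Restricting to strand-stable genes, also added later, gave 1 higher, 0 lower and medians of −0.14 (level) and −0.055 (balance). With cpsf70 replicate 1 held to 3 TPM, 57 members were listed in cpsf70 alone. The m6A share was 33.0% within 100 nt and 18.3% for peaks with a fold of at least 5. The CLIP share was 18.9% within 100 nt, 3.72% for that fold and 3.87% for peaks shared by both replicates.

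Without 1 library at a time, the level median ran from −0.088 (without cpsf70 replicate 1) to 0.092 (without cpsf70 replicate 2). The balance median ran from 0.16 (without cpsf70 replicate 2) to 0.42 (without Col0 replicate 1). The change of RR1 ran from −0.94 (without cpsf70 replicate 2) to 7.74 (without cpsf70 replicate 1), and the CLIP share from 6.19 to 6.66%. Uncalled changes ran from −0.056 to 0.40 in AT5G10960, −0.23 to 0.51 in RTNLB3, −0.094 to 0.65 in AT3G62560, −0.32 to 0.37 in LHCB6, −0.24 to 0.39 in NPR1 and −0.11 to 0.36 in TOC1. A lone library was taken to vary like those of the other group.

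Same-numbered libraries deviated together with a correlation of 0.20 over 13668 sites, from 2 pairs, which is not taken as a pairing. With the replicate block, limma called 0 of 13668 sites, so 0 higher and 0 lower members (smallest adjusted p 0.292; 37 members at an unadjusted p under 0.05), and 1 balance, that of SK32 (7.30, adjusted p = 0.0459).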
